A study of Mus musculus with 2 samples.

Results

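The genes for the ligands of the Fgf, Hedgehog and Notch pathways were examined for H3K27me3 in mouse rib chondrocytes. The set held 30 genes chosen by name, which were 22 Fgf genes, 3 Hedgehog genes and 5 Delta or Jagged genes. They were chosen with earlier results of these data known. A gene was counted as carrying the mark when at least 1 region of the deposited list named it. A gene without one is called unmarked below, although a fainter mark would not have been listed. The authors' paper associated more genes with H3K27me3 than this list names, from this series and a further one. The list held 2017 regions, of which 1284 named a nearby gene (at most 4979 bp away) and 13 named a ligand gene. In all, 11 of the 30 ligand genes had a listed region and 19 had none.

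H3K27me3 was measured by ChIP-seq, in which an antibody enriches the chromatin that carries a mark before sequencing, and chromatin without this step (input, here 2%) gives the background. The series held 1 ChIP library and 1 input library, without replicates. Both came from the rib chondrocytes of 11 wild-type CD1 mice at p2.5 (postnatal day 2.5), which were pooled, kept overnight with 5% FCS in 2 dishes and given no other treatment. No genotype or condition was compared, so every value describes this pool of cells. A lower ChIP signal from fewer marked cells or alleles cannot be told apart from less mark per cell.

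Total library depth was not in the list. Together the 2017 regions held 143822 ChIP tags (mapped reads) and 19260 input tags, or 7.47 ChIP tags for each input tag (7.36 to 7.58). This ChIP-to-input ratio and those below were not scaled for depth. The range in parentheses after each is its 95% Clopper-Pearson interval, which covers counting error only. Of 18 chondrocyte marker genes under their current symbols, such as Col2a1, Acan and Sox9, 17 were named by no region, and the exception was Ihh, a ligand of the present set. By comparison, regions named 4 of 8 neural marker genes and 2 of 8 skeletal muscle marker genes, against 0 of 8 endothelial, 0 of 9 blood, 0 of 8 osteoblast and 1 of 11 fibroblast and perichondrium genes. Of all protein-coding genes 3.90% were named, so counts of 0 or 1 in lists of this size lie near that share and do not identify the cells.

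H3K27me3 is placed by PRC2 on the chromatin of genes that are held silent, and genes for developmental signals are among its known targets. Most Fgf proteins are secreted ligands of the Fgf receptor tyrosine kinases, whereas a small group stays inside the cell and acts on ion channels. Hedgehog proteins are secreted ligands that bind Patched and thereby release Smoothened. Delta and Jagged proteins sit in the membrane of a cell and bind Notch receptors on its neighbour. In the growth plate, Ihh made by prehypertrophic chondrocytes controls proliferation and hypertrophy together with PTHrP, and Fgf signals through Fgfr3 restrain proliferation.

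Among the protein-coding genes of RefSeq, 3.90% were named by a listed region (855 of 21900), and among the ligand genes 36.7% were. The share was 22.7% for the Fgf genes (5 of 22), 66.7% for the Hedgehog genes (2 of 3) and 80% for the Delta and Jagged genes (4 of 5). Genes are not replicates, and no test was made between families or against the other genes. Because the members were chosen with earlier results of these data known, their shares, here and below, are not independent of that choice. Counting only regions closer than 2500 bp to the start, 8 of the 30 ligand genes kept a region (26.7%), against 2.20% of protein-coding genes. Counting only regions that overlapped the gene, 8 of 30 did, against 2.53%. The ChIP height, the peak of the smoothed tag profile, was 8 or more in every listed region. A limit of 9 on it left 5 of 30 ligand genes, against 1.67%, and a limit of 10 left 3 of 30 (10.0%), against 0.708%. A −log10 q-value of 40 or more was reached at 8 of 30, against 2.73%, and 7 of 30 had a region that named no other gene, against 2.92%.

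**Figure D1:**
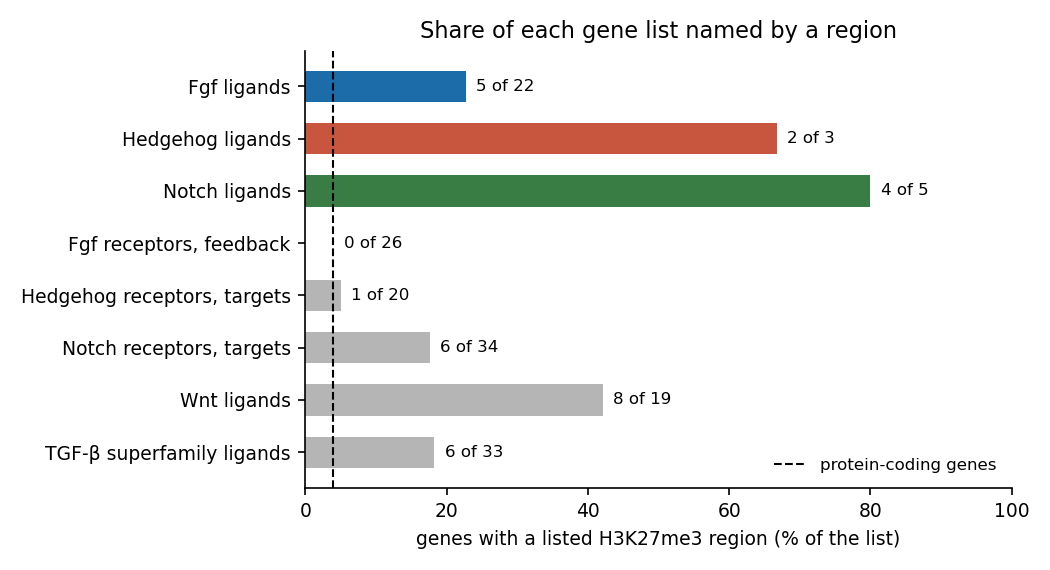
Share of the genes of each list that a listed H3K27me3 region named, in percent of the list, with the counts beside the bars and the share of protein-coding genes (3.90%) as a dashed line. The Delta and Jagged genes had the highest share (4 of 5) and of the 8 pathway and ligand lists drawn the Fgf receptor and feedback genes had the lowest (0 of 26). In a list of that size, a count of 0 lies near the share of protein-coding genes.

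In size and signal, the medians of the ligand regions lay near those of the whole list. Their median length was 1067 bp, from 374 to 2947 bp, and the median of all regions was 1067 bp as well. They held a median of 60 ChIP tags, from 23 to 158, and 6 input tags, from 0 to 20, compared with medians of 56 and 7 over all regions. Their median ChIP height was 8.99 (all regions, 8.68), with 7 of the 13 below 9. Pooled over the 13 regions, 963 ChIP and 112 input tags made a ChIP-to-input ratio of 8.60 (7.06 to 10.6), and the ratio of all regions falls within this range. By family the ratios were 8.40 (6.55 to 10.9) at Fgf genes, 6.25 (3.67 to 11.4) at Hedgehog genes and 10.6 (7.06 to 16.5) at Delta and Jagged genes. These intervals overlap, but they pool the tags of different genes, and no test between the families was made. At Hedgehog genes all 16 input tags came from Ihh, whose own ratio was 3.94 (2.25 to 7.30). Shh had none, and its interval began at 9.54, so the intervals of Ihh and Shh did not meet.

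**Figure D2:**
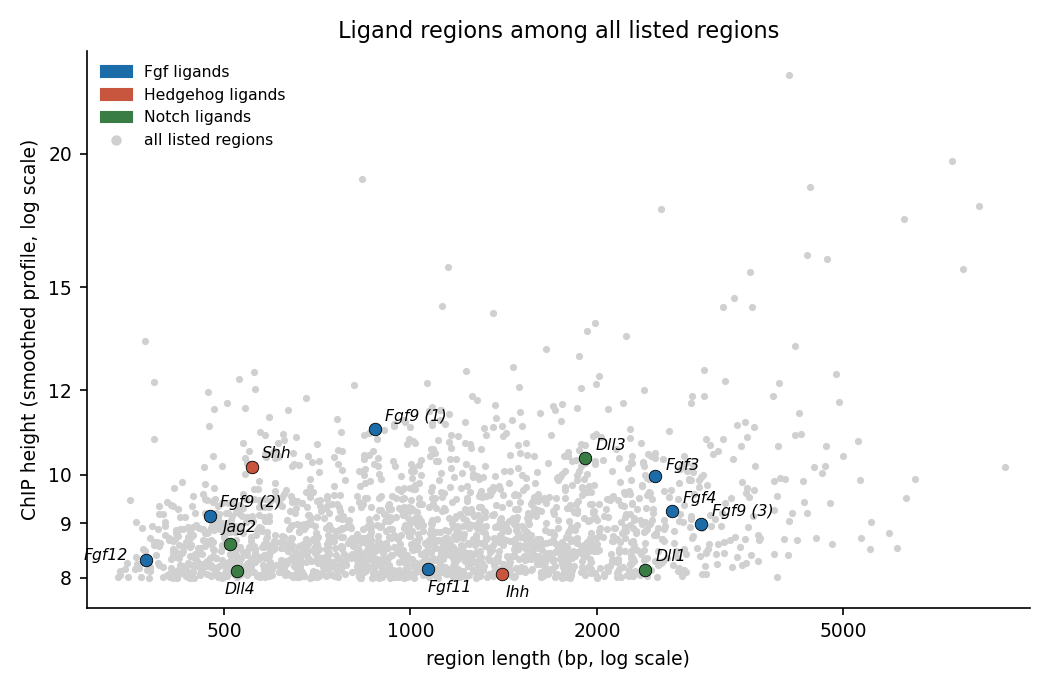
ChIP height (smoothed profile) against region length in bp, both on log scales, for all 2017 listed regions in grey and the 13 ligand regions in colour by family. The ligand regions lie between heights of 8.07 and 11.0 and lengths of 374 and 2947 bp, within the grey cloud.

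Fgf3 and Fgf4 carried the mark across their 5′ ends. Both encode secreted Fgfs of the early embryo, Fgf3 in inner ear and tail development and Fgf4 in the blastocyst and the apical ridge of the limb bud. They are neighbours on chromosome 7, and theirs were the only ligand regions that spanned the 5′ end of the gene (2 of 13, or 15.4%, against 6.06% of all pairs of a region and a gene). The Fgf3 region (mm9, chr7:152024189-152026669) held 126 ChIP and 20 input tags, with a ChIP-to-input ratio of 6.30 (3.91 to 10.7). The Fgf4 region (chr7:152045359-152047999) held 138 and 16, with a ratio of 8.63 (5.13 to 15.5). With lengths of 2481 and 2641 bp, they were longer than 91.0% and 92.3% of the listed regions, and 18690 bp without a listed region lay between them. Another region, 9306 bp past that of Fgf4 (chr7:152057305-152057769, 29 ChIP tags and 2 input tags), named no gene. Fgf15, the next protein-coding gene after Fgf4 in the order of RefSeq and the ileal hormone that restrains bile acid synthesis, had no listed region.

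Because the mark lay on these 5′ ends, the 250 bases before the start of each gene are shown, read from RefSeq (GRCm38.p6) by gene symbol, 5′ to 3′, with CpG dinucleotides, the sites of DNA methylation, in capitals. The list is in mm9, so positions of the 2 builds were not compared. The Fgf3 sequence (chr7:144838362-144838611, plus strand) has 4 CpGs, and that of Fgf4 (chr7:144861136-144861385, plus strand) has 21. The observed number of CpGs over that expected from the C and G content was 0.407 at Fgf3 and 0.675 at Fgf4.
Fgf3: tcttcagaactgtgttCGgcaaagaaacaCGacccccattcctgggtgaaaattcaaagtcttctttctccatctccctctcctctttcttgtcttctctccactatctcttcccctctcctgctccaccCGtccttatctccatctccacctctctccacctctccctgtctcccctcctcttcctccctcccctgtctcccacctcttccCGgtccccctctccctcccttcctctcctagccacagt
Fgf4: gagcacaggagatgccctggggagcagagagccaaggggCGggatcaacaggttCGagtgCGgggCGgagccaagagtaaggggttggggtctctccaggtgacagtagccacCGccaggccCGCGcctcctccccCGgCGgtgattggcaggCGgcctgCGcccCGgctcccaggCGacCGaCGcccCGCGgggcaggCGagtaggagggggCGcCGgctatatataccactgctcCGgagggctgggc

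Fgf9 was the only ligand gene with more than 1 region, and its regions had the most tags and the highest profile of the set. It encodes a secreted Fgf that acts in skeletal growth, lung mesenchyme and testis. The first region lay 2396 bp upstream of the gene (mm9, chr14:58688252-58689127). It held 60 ChIP and 4 input tags, with a ChIP-to-input ratio of 15 (5.56 to 56.8), and its ChIP height of 11.0 was above that of 95.3% of all regions. Inside the gene, a short region began 2746 bp from the 5′ end (chr14:58694269-58694742, 28 and 2 tags) and a longer one 3571 bp from it (chr14:58695094-58698040, 158 and 16 tags). Their ratios were 14.0 (3.53 to 121) and 9.88 (5.90 to 17.7), and 352 bp separated them. The 5′ end itself lay in a gap of 5142 bp without a listed region. Pooled over the 3 regions, Fgf9 had 246 ChIP and 22 input tags, with a ChIP-to-input ratio of 11.2 (7.22 to 18.2), and 4297 bp in regions.

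**Figure D3:**
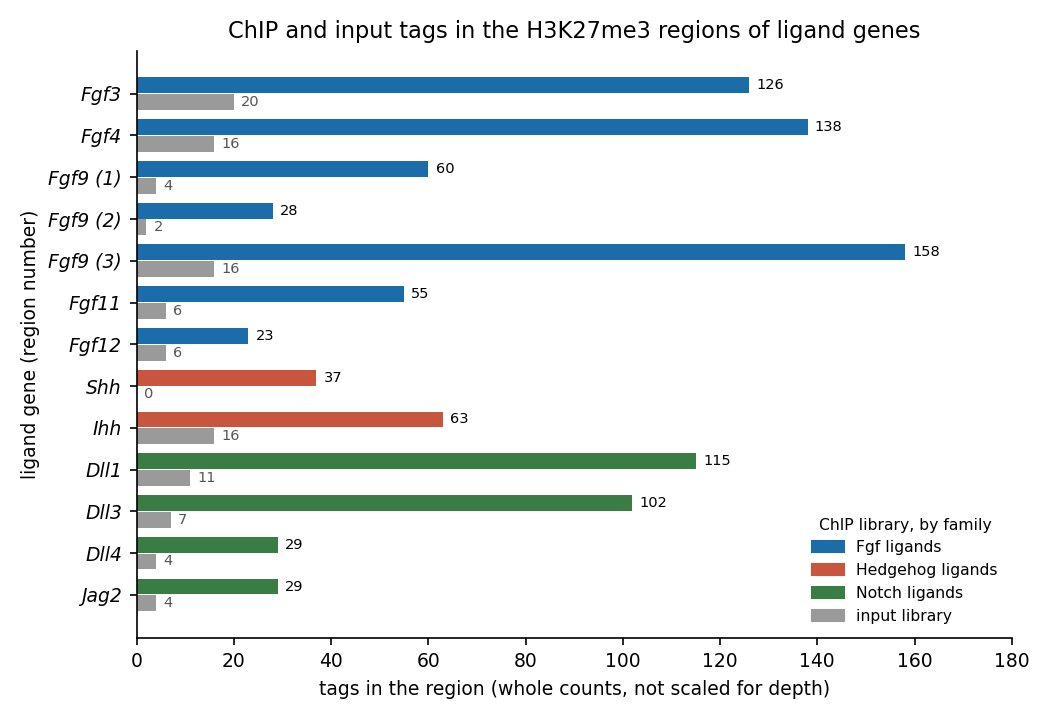
ChIP tags (coloured by family) and input tags (grey) in each of the 13 regions of ligand genes, as whole counts that were not scaled for depth. The third Fgf9 region held the most ChIP tags (158), and the Shh region is the only one with 0 input tags.

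The other marked Fgf genes were Fgf11 and Fgf12, whose proteins belong to the intracellular group and bind voltage-gated sodium channels. The Fgf11 region lay 272 bp upstream of the gene (mm9, chr11:69615399-69616465). It held 55 ChIP and 6 input tags, with a ChIP-to-input ratio of 9.17 (3.95 to 26.1). The same region also named Tmem102, at 634 bp, and G630025P09Rik, at 706 bp, so it cannot be given to Fgf11 alone. The Fgf12 region (chr16:28565048-28565421) held the fewest tags of the set, with 23 in ChIP and 6 in input, a ratio of 3.83 (1.52 to 11.5). Its length of 374 bp was above that of 0.843% of all regions, and its tag enrichment, the deposited ratio of ChIP to input tags, was above that of 4.61%.

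By the listed distance to the 5′ end of the gene, the Fgf12 region was the farthest, from 187867 to 188240 bp into the gene. RefSeq lists 4 starts for Fgf12, and in GRCm38.p6 the second lies 188292 bp from the first. These distances come from different builds, so whether the region touches the second start was not tested. The 250 bases before each of these starts are shown in the same way as above (minus strand, chr16:28753244-28753493 and chr16:28564952-28565201). They hold 18 and 24 CpGs, with observed over expected values of 0.887 and 0.860.
Fgf12, first start: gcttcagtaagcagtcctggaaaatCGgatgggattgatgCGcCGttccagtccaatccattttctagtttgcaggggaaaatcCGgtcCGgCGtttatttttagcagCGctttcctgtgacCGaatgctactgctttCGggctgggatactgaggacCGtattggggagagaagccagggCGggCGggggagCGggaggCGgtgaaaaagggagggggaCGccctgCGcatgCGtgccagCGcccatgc
Fgf12, second start: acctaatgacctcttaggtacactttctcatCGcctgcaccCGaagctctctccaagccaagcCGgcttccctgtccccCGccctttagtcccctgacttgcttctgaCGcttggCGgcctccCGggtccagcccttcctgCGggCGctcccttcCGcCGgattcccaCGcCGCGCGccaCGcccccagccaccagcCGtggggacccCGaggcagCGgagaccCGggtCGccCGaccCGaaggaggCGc

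The remaining 17 Fgf genes had no listed region. By subfamily, 1 of 3 genes of the Fgf4 subfamily had a region, with Fgf5 and Fgf6 without. The share was 1 of 4 in the Fgf7 subfamily, where Fgf7, Fgf10 and Fgf22 had none, and 1 of 3 in the Fgf9 subfamily, where Fgf16 and Fgf20 had none. Fgf1 and Fgf2, which lack a classical signal peptide, had none. The same held for Fgf8, Fgf17 and Fgf18, the last of which is a known signal of the perichondrium to growth plate chondrocytes. None was listed at the endocrine Fgf15, Fgf21 and Fgf23, the last a bone-derived hormone of phosphate balance, or at the intracellular Fgf13 and Fgf14. A stretch needed a height of 8 and in this list had at least 20 ChIP tags, so a fainter mark there would not have been listed.

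The 2 marked Hedgehog genes, Shh and Ihh, had 0 and 16 input tags in their regions. Shh, the signal of the notochord, floor plate and posterior limb bud, had a region 1203 bp upstream (mm9, chr5:28794844-28795397) with 37 ChIP tags and 0 input tags. The tag enrichment, whose input is set to a minimum, was 7.26 here. Against the 3 tags that a count of 0 allows, the fold of ChIP tags, not scaled for depth, had a lower bound of 12.3. This bound takes the 37 ChIP tags as exact. With counting error in both libraries, the Clopper-Pearson interval of the ratio began at 9.54 and had no upper end. Input tags were likewise 0 in 110 of the 2017 regions (5.45%). The region overlapped 9530036O11Rik, a transcript beside Shh, and its ChIP height of 10.2 was above that of 88.4% of regions. No other region lay within 100000 bp of it.

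Ihh, the Hedgehog ligand of the growth plate itself, had a region 4579 bp upstream, close to the largest distance in the list (4979 bp). That region (mm9, chr1:75002804-75004207) held 63 ChIP and 16 input tags, with a ChIP-to-input ratio of 3.94 (2.25 to 7.30). It was the only ligand region whose interval ended below the ratio of all regions, and Shh the only one with its lower bound above it. The other 11 intervals included it. The ChIP height at Ihh was 8.07, the lowest of the set, and its input tags of 11.4 per kb were above the median of all regions (6.22). No listed region overlapped Ihh or its 5′ end. A further 8 regions lay within 100000 bp of the Ihh region, all on the side of lower coordinates. They named Ccdc108, Cryba2, Fev and Cdk5r2, apart from 1 that named no gene, and the nearest, at Ccdc108, was 22397 bp away with 106 ChIP tags and 12 input tags. The marked Wnt10a lay farther along the same side, 154012 bp from the Ihh region. Dhh, the Hedgehog ligand of testis and peripheral nerve, had no listed region.

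**Figure D4:**
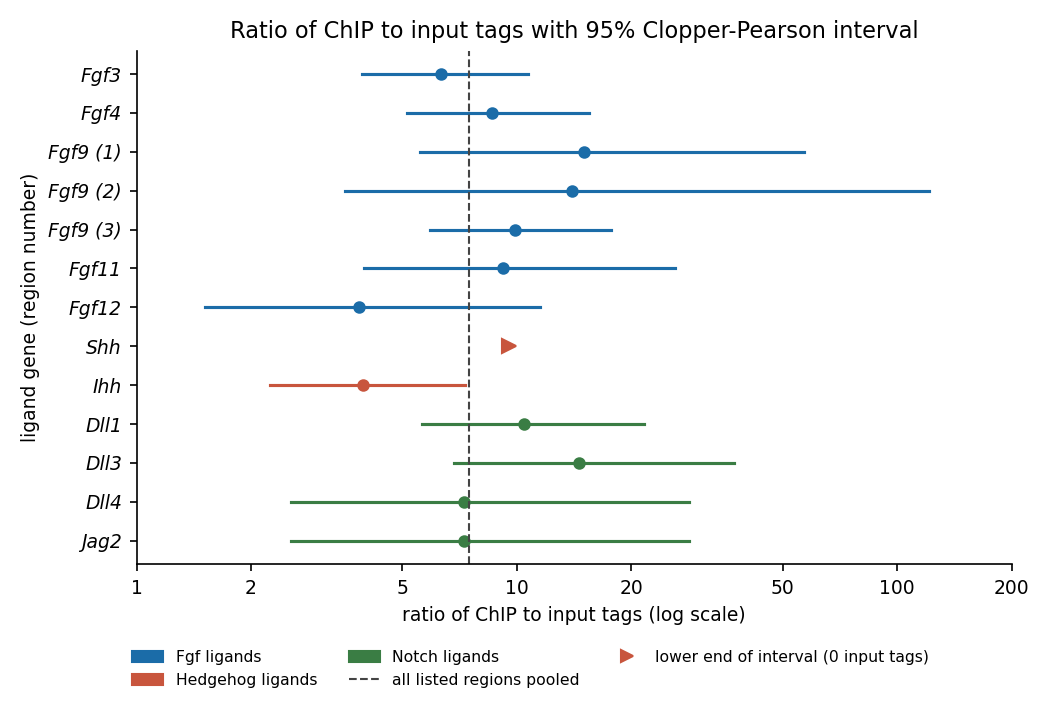
ChIP-to-input ratio of each ligand region on a log scale, with the 95% Clopper-Pearson interval, and the pooled ratio of all listed regions (7.47) as a dashed line. The triangle marks the lower end of the interval at Shh (9.54), which has no upper end, and the interval of Ihh ends just left of the line.

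At all 3 Delta genes the listed region overlapped the gene and began downstream of its 5′ end. Dll1, a Notch ligand of somites and neural progenitors, had a region that began 845 bp from its 5′ end (mm9, chr17:15509553-15511942). It held 115 ChIP and 11 input tags, with a ChIP-to-input ratio of 10.5 (5.63 to 21.5), at a height of 8.15. Regions that named no gene lay 11609 bp and 13845 bp away, with 82 and 25 ChIP tags. Dll3, unlike the other Delta proteins, acts as an inhibitor of Notch in somite formation. Its region lay far from the start, from 7729 to 9644 bp past the 5′ end (chr7:29077160-29079075). Whether the region ran past the 3′ end was not tested. With 102 and 7 tags its ratio was 14.6 (6.82 to 37.2), and its height of 10.4 exceeded that of 90.6% of regions. The deposited tag enrichment, whose input is set to a minimum, was less marked. It was 5.23 at Dll1 and 5.79 at Dll3, above that of 25.4% and 54.2% of regions. The Dll3 region also lay 1007 bp from BC089491, which a further region named 4025 bp away.

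Dll4 and Jag2 had short regions with the same counts. Dll4, the Notch ligand of arterial and sprouting endothelium, had a region of 525 bp that began 431 bp from its 5′ end (mm9, chr2:119151951-119152475) and lay 18 bp from Gm14207. Jag2, a Notch ligand of limb and craniofacial development, had a region of 512 bp that began 957 bp from its 5′ end (chr12:114166238-114166749). Each held 29 ChIP and 4 input tags, with a ChIP-to-input ratio of 7.25 (2.55 to 28.4). Their heights were 8.11 and 8.61, below 9 as in Dll1. Jag1, the ligand of the same type that is broadly expressed in mesenchyme and vessels, had no listed region.

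The start of Jag2 was the most CpG-rich of the 10 marked ligand genes with a RefSeq promoter entry, and the 250 bases before it are shown (GRCm38.p6, chr12:112929496-112929745, minus strand, CpGs in capitals). They hold 54 CpGs, an observed over expected value of 1.14. The listed region lay downstream of this stretch and overlapped the gene.
Jag2: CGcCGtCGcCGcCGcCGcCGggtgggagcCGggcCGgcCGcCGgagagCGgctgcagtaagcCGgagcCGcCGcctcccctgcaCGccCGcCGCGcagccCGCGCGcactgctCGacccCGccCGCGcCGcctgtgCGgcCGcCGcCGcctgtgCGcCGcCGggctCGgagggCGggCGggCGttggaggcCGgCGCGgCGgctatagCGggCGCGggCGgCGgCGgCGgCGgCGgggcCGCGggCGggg

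Of the 11 ligand genes with a region, 10 matched the RefSeq promoter table, with 14 starts in all, and Shh did not. The 250 bases before these starts held a median of 19 CpGs, from 4 at Fgf3 to 54 at Jag2, and the median over 32851 starts of coding and non-coding genes was 6. The median observed over expected value was 0.794, from 0.355 at Fgf11 to 1.14 at Jag2, against 0.374 over all starts, and 13 of the 14 lay above the latter. So did 14 of the 16 starts of the 13 ligand genes without a region that had an entry, and 4 of the 14 starts of marked genes belong to Fgf12 alone. The letters TATAAA, searched on both strands, occurred in 0 of the 14 and in 12.4% of all starts. Among the 16 starts of ligand genes without a region they occurred only at Fgf21. In a set of 14, a count of 0 lies near the share of all starts, and other TATA-like letters were not searched. Whether the marked and unmarked ligand genes differ was not tested, because the 23 of all 30 genes with an entry (76.7%) are below the 80% set for such a check.

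By position, 9 of the 13 ligand regions overlapped the gene (69.2%, and 56.9% of all pairs of a region and a gene). Downstream of the 5′ end, 7 regions overlapped the gene, and 4 lay upstream of it. Whether any of these 7 ran past the 3′ end was not tested. No ligand region lay wholly past the 3′ end, where 16.3% of all pairs did. The median distance to the 5′ end was 1203 bp, compared with 3413 bp for all pairs. Another gene was named by 4 of the 13 regions, at Fgf11, Shh, Dll3 and Dll4.

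**Figure D5:**
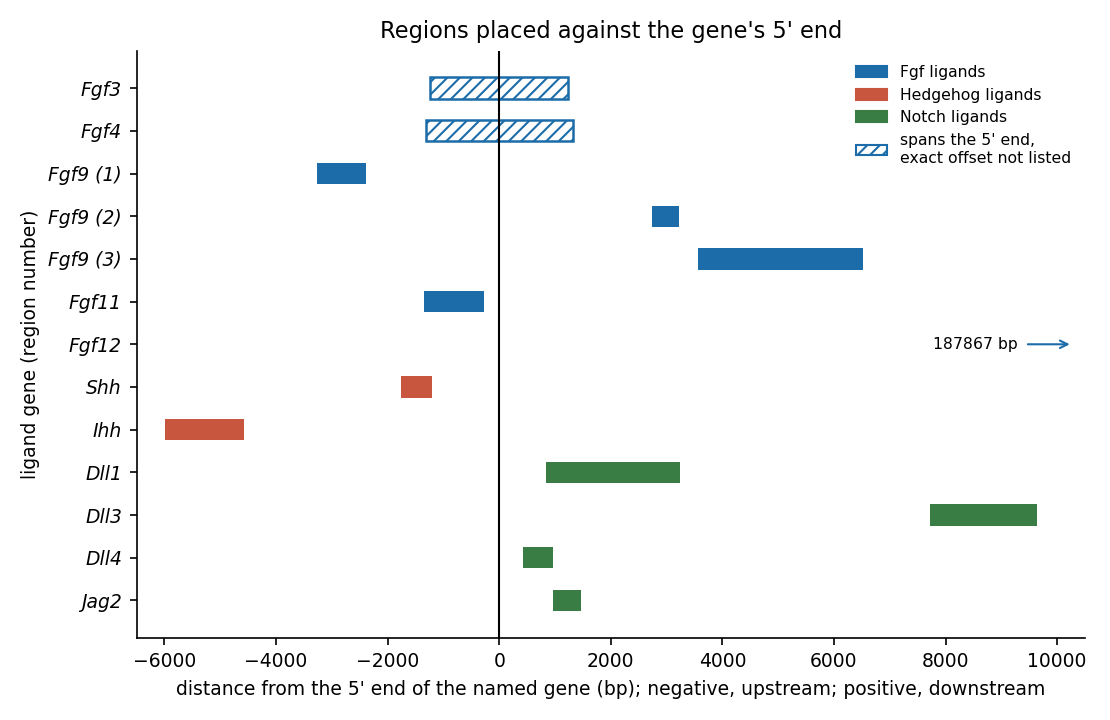
Extent of each ligand region in bp against the 5′ end of its gene at 0, with upstream negative and downstream positive. The hatched Fgf3 and Fgf4 bars are centred on 0 since the list does not give where in them the 5′ end falls, the Fgf12 region lies off the axis at 187867 bp, and the Delta and Jagged regions all lie downstream of 0.

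The receptors, transducers and targets of the same pathways were counted in the same way, with no test between lists. None of 26 genes for Fgf receptors, co-receptors and feedback regulators, among them Fgfr1, Fgfr3, Spry2 and Dusp6, had a listed region, against 3.90% of protein-coding genes. In the Hedgehog pathway 1 of 20 did (5%). This was Gli1, the transcription factor induced by the pathway, with a region 1754 bp past its 3′ end (mm9, chr10:126763394-126765184, 89 ChIP tags and 9 input tags) that also named Arhgap9. The receptor gene Ptch1 and the transducer gene Smo had none.

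In the Notch pathway 6 of 34 genes had a region (17.6%). The E3 ligase gene Dtx1 had one across its 5′ end (mm9, chr5:121160104-121162326) with 101 ChIP and 4 input tags, with a ChIP-to-input ratio of 25.3 (9.56 to 94.5). Of the Hes repressor genes, Hes2 and Hes3 also had regions across the 5′ end, with 133 and 84 ChIP tags and ratios of 9.50 (5.47 to 17.8) and 8.40 (4.35 to 18.2), the latter shared with Icmt. Hes5, a Notch target of neural progenitors, carried 2 regions that summed to 140 ChIP and 20 input tags, with a ChIP-to-input ratio of 7 (4.36 to 11.8). The region with more of them (85 ChIP tags) also named Pank4. The regions of Notch3, 4313 bp past its 3′ end, and of the non-canonical ligand gene Dlk2, 3678 bp upstream, held 53 and 26 ChIP tags against 4 and 1 input tags. Hes1, Hey1, Notch1 and Notch2 had no listed region.

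Set beside other ligand families, Wnt genes had a region in 8 of 19 cases (42.1%) and genes of the TGF-β superfamily in 6 of 33 (18.2%), against 11 of 30 (36.7%) for the Fgf, Hedgehog and Notch ligands. The pooled ratios were 7.61 (6.54 to 8.89) at Wnt genes and 9.49 (7.06 to 13.0) at TGF-β superfamily genes, and both intervals overlap that of the ligands studied here. Of the 8 marked Wnt genes 1 had a lone region, and the 8 shared 20 regions in all. A lone region was found at 3 of the 6 marked TGF-β superfamily genes and at 10 of the 11 marked Fgf, Hedgehog and Notch ligand genes. Among all 922 named genes, 586 had a lone region. No test was made between the families, whose lists were chosen with earlier results of these data known.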

How the data were processed

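The authors mapped the reads to mm9 with the DNAnexus mapper and called regions with QuEST, ChIP against input, per the labels. The settings and versions are not given in the sources used here. The deposited counts of ChIP and input tags are raw whole numbers. In the deposited ratio, called tag enrichment, ChIP tags are divided by input tags or by a minimum of 9.20 input tags per kb, whichever is more, as found from the values. The minimum applied in 1552 of the 2017 regions, and in 11 of the 13 ligand regions. The deposited signal height is the peak of the smoothed profile, and the deposited q-value is a −log10. Lengths count both end positions. Whether positions count from 0 or 1 is not stated.

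Gene names are those of the list, and every region and gene called for by the named-gene rule (each member, and each gene of the pathway lists with a region) is given. All 30 members were found in RefSeq (GRCm38.p6). Of the 922 listed names, 832 were RefSeq symbols, 80 matched an older symbol and 10 did not match. The share of protein-coding genes assumes that the authors' gene table, which was not used here, held the same genes. Shares of ChIP tags were given 95% Clopper-Pearson intervals (checked on simulated data), written as ratios. For a fold against a count of 0, the count was set to 3. With 1 library a group, no test between conditions was made. The members and lists were chosen with earlier results of these data known, and the Fgf subfamilies, the promoter starts shown and the bases used from them after seeing the values. Alternatives were higher limits on height and q-value, nearer regions, unshared regions, merging, added tags and omission of genes. Intervals were computed with scipy 1.17.1 and tables with pandas 2.3.3 (numpy 2.4.6) in Python 3.11.15, and plots were drawn with matplotlib 3.10.9.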

Additional observations from a re-analysis of the deposited data

How the results depend on the processing

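Of 38 recomputed values, 29 stayed within 1.5 times the main count or within the main 95% interval. Limits on the ChIP height moved the counts most. With a height of at least 9, 5 ligand genes (Fgf3, Fgf4, Fgf9, Shh and Dll3) and 6 regions were left, and with at least 10, 3 genes and 3 regions, with a pooled ratio of 18.1 and one of 15 at Fgf genes. Unshared regions left 7 genes, with Ihh alone of the Hedgehog genes (ratio 3.94 against 6.25), and regions within 2500 bp of a 5′ end numbered 8. The median deposited tag enrichment was 5.79, below the pooled ratio of 8.60, because its input is set to a minimum. With a gene left out, the pooled ratio ran from 7.97 (without Fgf9) to 9.38 (without Ihh). At Hedgehog genes no ratio could be given for height limits, regions overlapping the gene or those within 2500 bp, which left no input tags or no region. No paired analysis was possible because each group holds 1 library and no test was made. Depth limits single regions most, since input counts of 0 to 20 set the width of their intervals.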
